A study of Mus musculus with 23 samples.

Results

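The genes described here carry dietary fat and sterol across the enterocyte of the small intestine, from uptake at the brush border to the export of chylomicrons. There are 31 of them, chosen by name for their textbook roles among the 55416 gene rows of the data, and all 31 were among the 13405 genes with enough counts to be tested. They were measured by RNA-seq in mucosa scraped from the proximal small intestine, 1 library per mouse; the mice were of the strain C57BL/6JRccHsd and all labelled female. In the diet of GAL42 mice (12 libraries) galactose gave 16% of energy and glucose 16%, and in that of GLU42 mice (11 libraries) glucose gave 32%. The diets were the same in all else, feeding began at weaning and went on for 3 weeks, and all mice were 42 days old at sampling.

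Dietary triglyceride is split in the gut lumen, and its fatty acids and monoglyceride enter the enterocyte, where they are bound, activated to acyl-CoA and joined to triglyceride again. The triglyceride is loaded onto apolipoprotein B in the endoplasmic reticulum, and the finished chylomicron leaves towards the lymph. Cholesterol enters by its own transporter at the brush border, is esterified or returned to the lumen by a pair of ABC half-transporters, and leaves in chylomicrons or as high-density lipoprotein.

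The half-transporter genes Abcg5 and Abcg8 lie head to head on mouse chromosome 17. The stretch between their start sites is shown because their RNA levels moved together from library to library, as given further down. In RefSeq (build GRCm38.p6) the starts lie 110 bases apart, taking the nearer of 2 starts listed for Abcg8. The sequence is chr17:84683012-84683120, plus strand, 109 bases, with the start of Abcg5 next to its left end and that of Abcg8 next to its right end.
Abcg5-Abcg8: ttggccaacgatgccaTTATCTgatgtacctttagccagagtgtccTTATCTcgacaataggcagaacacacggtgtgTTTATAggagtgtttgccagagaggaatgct
The capitals mark 2 matches to the GATA motif (AGATAA, here as TTATCT on the other strand) and 1 to the TATA box letters (TATAAA, here as TTTATA). Further sequences are shown for genes that led the list by p-value in each direction, the fatty acid transporter gene Cd36 and the fatty acid binding protein gene Fabp1. Each is the 250 bases before the start, on the gene's own strand, at chr5:17835897-17836146 (minus strand) for Cd36 and chr6:71199629-71199878 (plus strand) for Fabp1.
Cd36: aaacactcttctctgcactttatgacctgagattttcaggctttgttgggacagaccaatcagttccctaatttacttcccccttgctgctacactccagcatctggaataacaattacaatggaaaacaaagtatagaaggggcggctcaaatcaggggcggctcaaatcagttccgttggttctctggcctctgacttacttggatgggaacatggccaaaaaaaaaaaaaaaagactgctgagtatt
Fabp1: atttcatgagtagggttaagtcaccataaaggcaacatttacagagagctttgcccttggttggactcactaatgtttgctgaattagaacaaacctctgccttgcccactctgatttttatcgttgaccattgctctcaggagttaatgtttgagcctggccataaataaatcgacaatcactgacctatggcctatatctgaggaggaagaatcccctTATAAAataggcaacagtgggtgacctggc
The capitals in Fabp1 mark TATAAA, which begins at position -30 from the start, and none of the 6 motifs searched matched in the Cd36 stretch.

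A promoter window of 300 bases (250 before and 50 after the start) was at hand for 24 of the 31 genes, and each motif was searched on both strands. TATAAA was in the windows of 6 genes (Abca1, Abcg5, Abcg8, Apob, Cideb and Fabp1) and in 13.6% of all 32851 windows. Abcg5 (at -84) and Abcg8 (at -31, on the other strand) share the 1 match shown above. The match began at -29 for Abca1, -60 for Apob and -172 for Cideb. AGATAA was in the windows of Abcg5 and Abcg8, which overlap by 209 bases, and in 11.2% of all windows. The letters CAAAGTCCA (an HNF4 site, in 0.475% of all windows), CAAGGTCA (LRH-1, 1.56%), TCACCCCAC (a sterol response element, 0.551%) and TAATTA (a homeobox site, 5.29%) were in none of the 24. A match is a run of letters and was not tested as a binding site.

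Libraries held 15382583 to 17080390 counts in genes on GAL42 and 15465647 to 17174721 on GLU42, so depth was nearly even. Markers of enterocytes summed to 35097 CPM (counts-per-million) in the median GAL42 library and 35376 CPM in the median GLU42 library, and all 8 were expressed. That sum held log2 differences, GAL42 minus GLU42, of both signs, as for Anpep (-0.33), Lct (-0.22) and Slc5a1 (0.25). All 4 Paneth cell, 5 crypt base, 6 smooth muscle and 5 fibroblast markers had negative differences. All 5 T cell and the 2 tested B and plasma cell markers had positive ones, and the remaining lists were mixed. No list was tested. Of 5 ileal markers Fabp6 and Slc10a2 averaged under 1 CPM over all libraries and Fgf15 averaged 1.27 CPM on GAL42 and 2.27 CPM on GLU42, while the bile acid exporter genes Slc51a (391 and 389 CPM) and Slc51b (110.1 and 101 CPM) were well expressed on GAL42 and GLU42. Of 8 adipocyte markers Adipoq, Plin1, Cfd, Lep and Retn averaged under 1 CPM over all libraries, and Cidec, at 118 CPM on GAL42 and 115 CPM on GLU42, held most of the summed level. One GAL42 library reached a summed pancreatic acinar level of 712.5 CPM, against a median of 34.7 CPM on GAL42 and 39.4 CPM on GLU42. GAL42 replicate 12 went against its label, with 4 counts of Xist and 225 of 4 Y-linked genes, where the other 22 libraries had at least 778 counts of Xist and at most 1 Y-linked count. GAL42 replicate 7 also stood apart: without it 219 genes passed the test between the diets, and with it 0 did. Libraries differed in their length slope, which says how far log2 CPM, set against the average library, goes up with each doubling of transcript length. The slope was -0.0289 ± 0.0553 on GAL42 and 0.0315 ± 0.0450 on GLU42 (SD, two-sided permutation p = 0.0107), so long transcripts read lower on GAL42. GAL42 replicate 7 had the highest slope of its diet, 0.0795.

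None of the 31 fat and sterol absorption genes passed the edgeR quasi-likelihood test (smallest Benjamini-Hochberg adjusted p = 0.139, for Cd36), where 0% of all tested genes passed. On the log2 scale, GAL42 minus GLU42, 16 differences were positive and 15 negative, and their median was 0.0072, against -0.0017 over all tested genes. Of the 31, 18 lay within 0.1 of 0 and 26 within 0.2, from a low of -0.57 for Cd36 to a high of 0.39 for the lipoprotein receptor gene Scarb1. The CPM ranges of the diets overlapped for all 31. Of the 108 other tested genes of the pathway, described further down, 59 lay within 0.1 of 0 and 87 within 0.2. The ranges overlapped for all 108 of them as well. The shares over all tested genes were not counted, so these counts are no result about the 31. At an unadjusted p under 0.05, 1 gene was higher on GAL42 (3.23% of the 31, against 8.63% of all tested genes) and 3 were lower (9.68%, against 5.72% of all tested genes). Those shares rest on 4 genes and were not tested. In simulated counts at this depth and spread the edgeR test recovered 34.9% of genes changed 1.25-fold and 75.9% of genes changed 1.5-fold, which limits what a miss says.

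**Figure D1:**
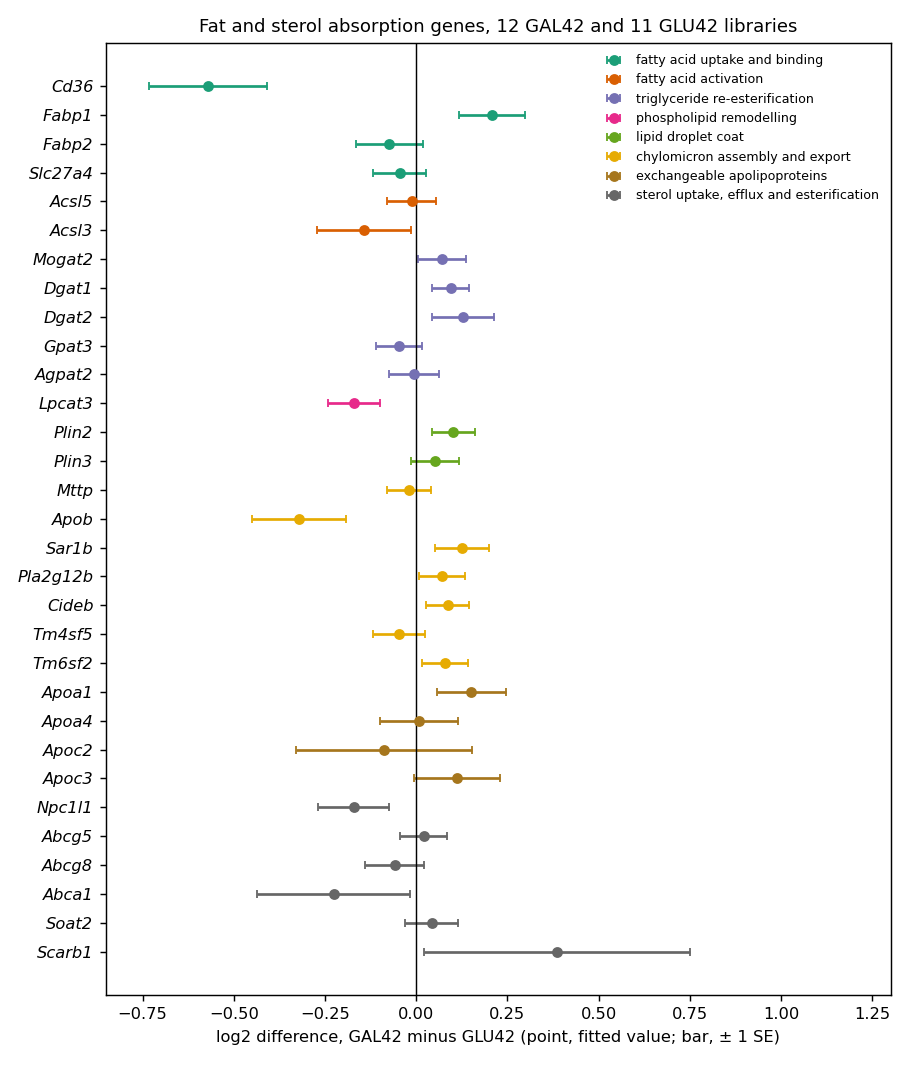
Fitted log2 difference, GAL42 minus GLU42 (horizontal axis), of each of the 31 genes, ordered and coloured by role; bars are ± 1 SE from edgeR. Cd36 lies farthest left at -0.57 and Scarb1, with the widest bar, farthest right at 0.39.

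The members are among the most abundant RNAs of this tissue. On a per-length scale (CPM per kilobase of the longest transcript) Apoa1, the main protein of high-density lipoprotein, ranked 1 and Apoa4, an apolipoprotein of chylomicrons, ranked 2 among 13386 genes by the median of all libraries. Fabp1 ranked 7, and 7 of the 31 were in the first 100 and 26 in the first 1000. The other 5 were Gpat3 (rank 1579), Cd36 (3198), Acsl3 (5123), Abca1 (7631) and Apoc2 (10394). Together the 31 genes took 7.02 ± 0.67% of counts in genes on GAL42 and 6.97 ± 0.69% on GLU42 (SD), of which Apoa1 and Apoa4 took 4.15 ± 0.57% on GAL42 and 3.99 ± 0.53% on GLU42.

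**Figure D2:**
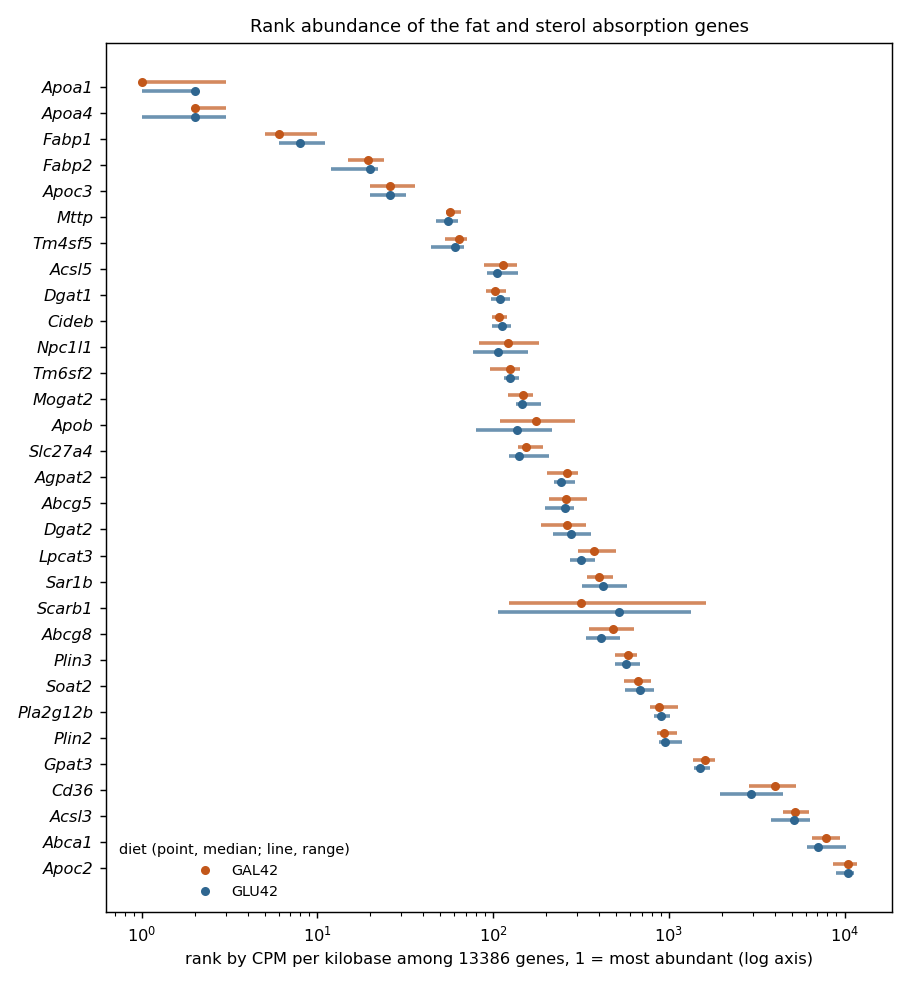
Rank by CPM per kilobase (log axis, 1 is the most abundant of 13386 genes) of each gene; points are the median library of a diet and lines run from its best to its worst rank. Apoa1 and Apoa4 hold ranks between 1 and 3 in every library, and the Scarb1 lines are wide for its level, running from 123 to 1636 on GAL42 and from 106 to 1340 on GLU42.

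Fatty acid uptake held the member with the largest difference and the smallest p, Cd36 (ENSMUSG00000002944), a membrane receptor that binds long-chain fatty acids. Cd36 had 25.9, 40.9 and 65.7 CPM in the lowest, median and highest GAL42 libraries, against 33.99, 63.8 and 106 CPM in those of GLU42. Of the 12 GAL42 libraries 11 lay below the GLU42 median, 4 GLU42 libraries lay above every GAL42 library, and the ranges overlapped between them. Its mean was 44.0 ± 13.6 CPM on GAL42 and 65.3 ± 18.5 CPM on GLU42 (SD), a log2 difference of -0.57 ± 0.16 (SE; edgeR p = 0.0015, adjusted p = 0.139). By DESeq2 it passed (adjusted p = 0.0348), where 25 of the 7168 genes given an adjusted p were called lower on GAL42, or 0.349%. It passed by edgeR only when GAL42 replicate 7 was left out (-0.64, adjusted p = 0.0425), where 44 of 13338 genes were called lower on GAL42, or 0.33%. That library held the highest Cd36 level of GAL42 (65.7 CPM), and leaving it out widened the difference. Without GAL42 replicate 12 the adjusted p of Cd36 was 0.157, and with the length slope as a covariate the difference was -0.46 (adjusted p = 0.739). In rank, Cd36 stood at a median of 4023.5 on GAL42 and 2933 on GLU42. In bulk tissue, fewer cells that carry a gene and less of its RNA per cell cannot be told apart. Macrophages, adipocytes and endothelial cells are also known to carry Cd36. The part of macrophages, adipocytes and endothelial cells in the difference was not tested. The 7 macrophage markers summed to between 110.1 and 203 CPM on GAL42 and between 102 and 195 CPM on GLU42, with 5 of 7 differences negative. The 8 adipocyte markers summed to between 87.1 and 159.6 CPM on GAL42 and between 99.5 and 188 CPM on GLU42, most of it Cidec. The other 7 all had a lower mean on GAL42, among them Car3 (0.88 CPM on GAL42 and 4.65 CPM on GLU42, unadjusted p = 0.0049) and Adipoq (0.11 CPM on GAL42 and 0.77 CPM on GLU42). Those 7 summed to 2.67, 5.55 and 10.19 CPM in the lowest, median and highest GAL42 libraries and 2.63, 5.39 and 84.7 CPM in those of GLU42. The high value was that of GLU42 replicate 1, the next highest GLU42 library had 11.9 CPM, and Cd36 had 59.1 CPM in replicate 1. Without GLU42 replicate 1 the Cd36 difference was -0.59 (edgeR adjusted p = 0.211). The 5 endothelial markers, of which Gpihbp1 was under 1 CPM, summed to between 23.5 and 46.5 CPM on GAL42 and between 20.7 and 47.2 CPM on GLU42, with 3 of 4 tested differences negative. The ranges of all 3 lists overlapped between the diets. On the log2 scale, less the diet means, the sums had these r with Cd36. They were -0.46 for macrophages, -0.32 for adipocytes (a sum that is mostly Cidec), -0.27 for endothelial cells and 0.25 for enterocytes. These r are given without a test.

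Fabp1 (ENSMUSG00000054422), the liver-type fatty acid binding protein that is also made in the proximal gut, was the 1 member higher on GAL42 at an unadjusted p under 0.05. It had 2231, 2786 and 4000.0 CPM in the lowest, median and highest GAL42 libraries, against 1954, 2482 and 3319 CPM in GLU42. All but 1 of the GAL42 libraries lay above the GLU42 median, though the ranges overlapped over most of their width. The means were 2898 ± 470.3 CPM on GAL42 and 2509 ± 379 CPM on GLU42, a log2 difference of 0.21 ± 0.09 (p = 0.028, adjusted p = 0.291 by edgeR), or 0.13 with the length slope as a covariate (adjusted p = 0.873). Fabp2, the intestinal-type fatty acid binding protein, averaged 2401 ± 317 CPM on GAL42 and 2527 ± 454 CPM on GLU42 (-0.07 ± 0.09). The ratio of Fabp1 to Fabp2 on the per-length scale was 2.12 ± 0.31 on GAL42 and 1.75 ± 0.21 on GLU42. It was formed from a gene picked for its p-value and was not tested. Slc27a4, a fatty acid transport protein of the brush border with acyl-CoA synthetase activity, averaged 1533 ± 153 CPM on GAL42 and 1583 ± 217 CPM on GLU42 (-0.05 ± 0.07, or 0.0025 with the length slope as a covariate).

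Fatty acid activation has 2 dedicated synthetase genes in the list. Acsl5, an acyl-CoA synthetase, averaged 2089 ± 217 CPM on GAL42 and 2107 ± 223 CPM on GLU42 (-0.01 ± 0.07). Its relative Acsl3, found on lipid droplets and the endoplasmic reticulum, averaged 29.6 ± 5.80 CPM on GAL42 and 32.7 ± 8.70 CPM on GLU42 (-0.14 ± 0.13, or 0.07 with the length slope as a covariate). Per length, Acsl5 exceeded Acsl3 by a ratio of 68.2 ± 16.3 on GAL42 and 63.2 ± 15.3 on GLU42.

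The 5 enzymes of triglyceride re-esterification lay close to 0, from -0.05 to 0.13, and none had an unadjusted p under 0.05. Dgat1, which makes triglyceride from diglyceride, had the smallest p of the 5. It had 878, 1003 and 1093 CPM in the lowest, median and highest GAL42 libraries, against 860.2, 916 and 1036 CPM in GLU42. The upper part of the GAL42 range went beyond GLU42, with 5 GAL42 libraries above every GLU42 library. The difference was 0.09 ± 0.05 (edgeR p = 0.073, adjusted p = 0.395). The second diglyceride acyltransferase, Dgat2, averaged 552 ± 86.0 CPM on GAL42 and 505 ± 68.5 CPM on GLU42 (0.13 ± 0.08). Mogat2, which acylates monoglyceride and starts the main route in the gut, averaged 711 ± 84.5 CPM on GAL42 and 677 ± 61.3 CPM on GLU42 (0.07 ± 0.07). Of the glycerol phosphate route, Gpat3 was the lowest of the 5 per length (median of 39.5 CPM per kilobase over all libraries). Agpat2 (252) lay above Dgat2 (223) and below Mogat2 (388). Gpat3, an acyltransferase, averaged 122 ± 12.9 CPM on GAL42 and 126 ± 12.7 CPM on GLU42 (-0.05 ± 0.06). Agpat2, which makes phosphatidic acid, averaged 365 ± 45.7 CPM on GAL42 and 366 ± 35.6 CPM on GLU42 (-0.01 ± 0.07). Dgat1 exceeded Dgat2 per length by 2.21 ± 0.35 on GAL42 and 2.25 ± 0.36 on GLU42.

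Lpcat3 (ENSMUSG00000004270), which places polyunsaturated chains into phosphatidylcholine, was lower on GAL42 at an unadjusted p under 0.05. Its lowest, median and highest libraries had 336, 402 and 498 CPM on GAL42, against 379, 471 and 537 CPM on GLU42. Of the 12 GAL42 libraries 10 lay below the GLU42 median and 4 below every GLU42 library. The means were 412 ± 54.2 CPM on GAL42 and 464 ± 48.7 CPM on GLU42, a log2 difference of -0.17 ± 0.07 (p = 0.025, adjusted p = 0.278 by edgeR).

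Both lipid droplet coat genes had small positive differences. Plin2 had 117, 139.7 and 152 CPM in the lowest, median and highest GAL42 libraries and 103, 127 and 145 CPM in those of GLU42 (0.10 ± 0.06, edgeR p = 0.099, adjusted p = 0.436). The GAL42 libraries lay mostly in the upper part of the joint range, 10 of 12 above the GLU42 median. Plin3 averaged 443 ± 44.4 CPM on GAL42 and 428 ± 48.4 CPM on GLU42 (0.05 ± 0.07), and per length it exceeded Plin2 by 1.68 ± 0.20 on GAL42 and 1.75 ± 0.27 on GLU42.

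Among the 7 chylomicron assembly genes Apob (ENSMUSG00000020609), the scaffold protein of the particle, stood apart from its partner Mttp, the transfer protein that loads it with lipid. Apob had 3179.7, 4978 and 6559.5 CPM in the lowest, median and highest GAL42 libraries, against 3759.6, 5762 and 8435 CPM in GLU42. Of the 12 GAL42 libraries 10 lay below the GLU42 median and 3 below every GLU42 library. The means were 4796 ± 1053 CPM on GAL42 and 5992 ± 1444 CPM on GLU42, a log2 difference of -0.32 ± 0.13 (p = 0.0197, adjusted p = 0.253 by edgeR). Apob has the longest transcript of the 31 (13934 bases), and its level moved with the length slope of the libraries (r = 0.80, rho = 0.73, n = 23; 0.78 within GAL42 and 0.83 within GLU42). With the length slope as a covariate in edgeR its difference was 0.0030 (adjusted p = 0.998). The slope itself differed between the diets, so this fit cannot tell diet and slope apart. The cause of the Apob difference was not tested. Mttp averaged 3561 ± 289 CPM on GAL42 and 3609.7 ± 343 CPM on GLU42 (-0.02 ± 0.06, or 0.02 with that covariate).

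The other assembly genes differed by at most 0.12. Sar1b, the GTPase that forms the vesicles in which chylomicrons leave the endoplasmic reticulum, had 157, 201 and 233 CPM in the lowest, median and highest GAL42 libraries and 146, 181 and 238 CPM in those of GLU42. The GLU42 range enclosed that of GAL42, and 9 of 12 GAL42 libraries lay above the GLU42 median (0.12 ± 0.07, edgeR p = 0.106, adjusted p = 0.447). Cideb, which helps to lipidate the particle, averaged 619 ± 51.0 CPM on GAL42 and 583 ± 56.3 CPM on GLU42 (0.09 ± 0.06). Tm6sf2, a membrane protein needed for lipoprotein lipidation, averaged 676 ± 86.7 CPM on GAL42 and 639.6 ± 38.2 CPM on GLU42 (0.08 ± 0.06). Pla2g12b, a catalytically inactive phospholipase family member that acts in lipoprotein secretion, averaged 84.8 ± 9.25 CPM on GAL42 and 80.8 ± 7.17 CPM on GLU42 (0.07 ± 0.06). Tm4sf5, a tetraspanin-like membrane protein, averaged 819.6 ± 109 CPM on GAL42 and 847 ± 90.7 CPM on GLU42 (-0.05 ± 0.07). The library lowest of all 23 for Agpat2, Pla2g12b, Tm4sf5, Tm6sf2 and Apoa1 was GAL42 replicate 12. Without it the differences were 0.02 for Agpat2, 0.10 for Pla2g12b, -0.03 for Tm4sf5, 0.10 for Tm6sf2 and 0.18 for Apoa1.

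The exchangeable apolipoproteins, which move between particles, include the most abundant RNAs of the list. Apoa1 had 12129.7, 16944 and 20507 CPM in the lowest, median and highest GAL42 libraries and 12162, 14407 and 17605 CPM in those of GLU42. Its GAL42 range was the wider, with 5 libraries above every GLU42 library and 1 below, and the difference was 0.15 ± 0.09 (edgeR p = 0.118, adjusted p = 0.463). Apoa4 averaged 25144 ± 4154 CPM on GAL42 and 25020.4 ± 5239 CPM on GLU42 (0.01 ± 0.11). Apoc3, which inhibits lipoprotein lipase, averaged 1304 ± 302 CPM on GAL42 and 1207 ± 233 CPM on GLU42 (0.11 ± 0.12). Apoc2, the activator of that lipase, was barely detected, with 311 counts in all 23 libraries, and averaged 0.80 ± 0.40 CPM on GAL42 and 0.85 ± 0.30 CPM on GLU42 (-0.09 ± 0.24).

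**Figure D3:**
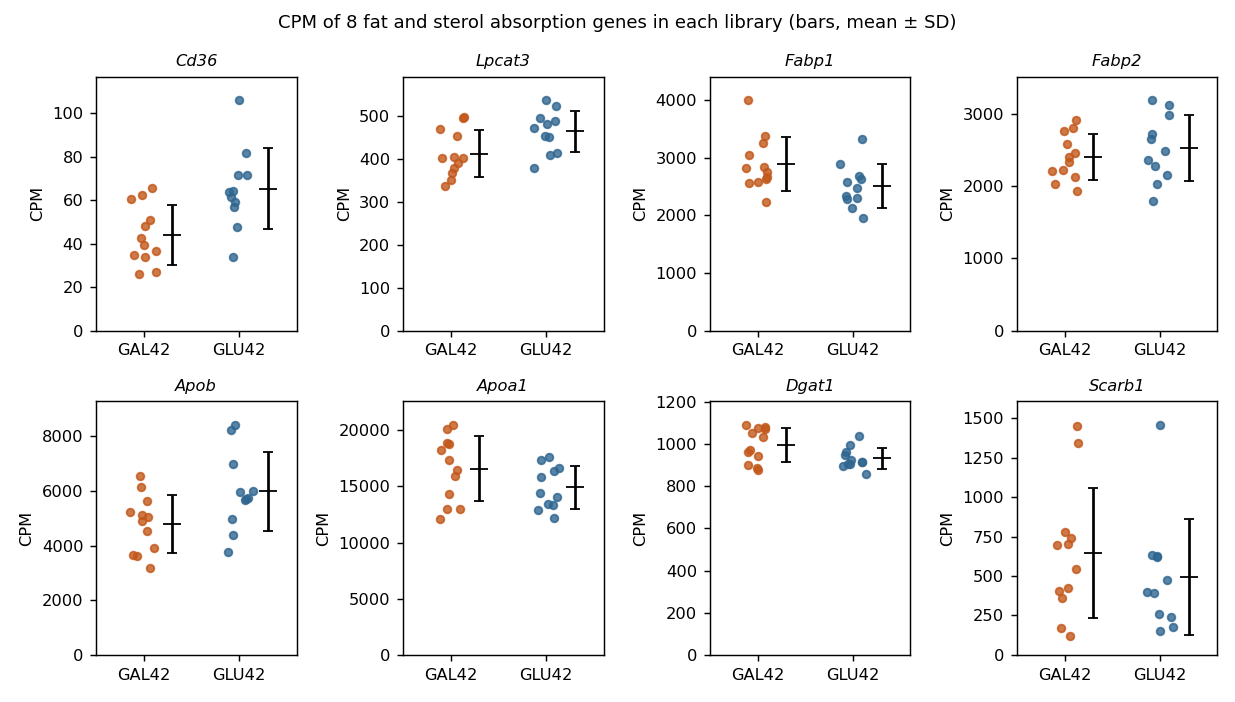
CPM (linear axis from 0) of 8 genes in each of the 12 GAL42 and 11 GLU42 libraries; points are libraries and bars are mean ± SD. Most GAL42 points of Cd36, Lpcat3 and Apob sit below the GLU42 mean, those of Fabp1 above it, and Scarb1 spreads from 123 to 1449 CPM on GAL42 and from 152 to 1459.7 CPM on GLU42.

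Of the 6 sterol genes none had an unadjusted p under 0.05, and their median difference was -0.02. Npc1l1, the cholesterol transporter of the brush border, had 1620.2, 1992 and 2875 CPM in the lowest, median and highest GAL42 libraries, against 1570.3, 2252 and 2798 CPM in GLU42. The ranges were nearly the same, with 9 of 12 GAL42 libraries below the GLU42 median (-0.17 ± 0.10, edgeR p = 0.0899, adjusted p = 0.425). With the length slope as a covariate its difference was -0.01. Abcg5 (ENSMUSG00000040505) had 475, 579.6 and 695 CPM in those GAL42 libraries and 493, 553 and 673 CPM in those of GLU42 (0.02 ± 0.06). Its partner Abcg8 (ENSMUSG00000024254), with which it forms the sterol pump back to the lumen, had 414, 513 and 686 CPM on GAL42 and 441, 561 and 662 CPM on GLU42 (-0.06 ± 0.08). For both genes the diets covered almost the same range. Abcg5 exceeded Abcg8 per length by 1.68 ± 0.16 on GAL42 and 1.59 ± 0.11 on GLU42. Abca1, which passes cholesterol to apolipoprotein A-I at the basolateral side, averaged 31.5 ± 11.2 CPM on GAL42 and 36.8 ± 13.7 CPM on GLU42 (-0.23 ± 0.21). With the length slope as a covariate the direction turned for Abca1 (0.13) and for Abcg8 (0.05). Soat2, which esterifies cholesterol, averaged 226 ± 23.3 CPM on GAL42 and 219.7 ± 30.3 CPM on GLU42 (0.04 ± 0.07).

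Scarb1 (ENSMUSG00000037936), the scavenger receptor that takes up lipoprotein cholesterol and, in the gut, carotenoids, was the most variable member. It had 123, 622 and 1449 CPM in the lowest, median and highest GAL42 libraries, against 152, 398 and 1459.7 CPM in GLU42. The ranges were almost the same, and the highest library of all held 11.9 times the CPM of the lowest. Within a diet the SD of its log2 CPM was 1.01, where the median member had 0.18 and the median tested gene 0.24, and 129 tested genes (0.962%) had a larger one. The difference between the diets was 0.39 ± 0.36 (edgeR p = 0.298, adjusted p = 0.656), or 0.43 without GAL42 replicate 12 and 0.41 without GAL42 replicate 7, and it lay between 0.21 and 0.70 over all fits with 1 library left out. It was 0.81 with the length slope as a covariate (adjusted p = 0.777) and 0.18 by limma-voom with sample quality weights (adjusted p = 0.826).

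How the members moved together was described on log2 CPM after taking off each diet's mean, over all 23 libraries. For this, 10 pairs were set from their shared roles, with earlier results of these data known. Their p-values are therefore not those of a plan made blind to the data. Abcg5 with Abcg8 had the highest correlation of the 10 (r = 0.81, rho = 0.79, permutation adjusted p = 1e-04 and 5e-04 over the 10 pairs). It was 0.78 within GAL42 and 0.87 within GLU42, and 0.74 without the 2 libraries farthest from the median of Abcg5. Of 13404 genes ordered from the most positive r, Abcg8 ranked 2 for Abcg5, and Abcg5 ranked 5 for Abcg8. The genes with the facing starts shown above thus varied together from library to library on either diet. On chromosome 9 the apolipoprotein genes lie in the order Apoa1, Apoc3, Apoa4 and Apoa5. There Apoa4 and Apoc3 had r = 0.67 (rho = 0.66, adjusted p = 0.0021 and 0.00257; 0.60 without 2 libraries), and Apoa1 and Apoa4 had r = 0.62 (rho = 0.62, adjusted p = 0.0047 and 0.0051; 0.62 without 2). The pair Apoa1 and Apoc3 missed the threshold (r = 0.46, rho = 0.41, adjusted p = 0.0526 and 0.0772; 0.37 without 2). Apoa1 had a higher r with members outside this gene order, Pla2g12b (0.79) and Agpat2 (0.74), given without a test. Whether gene order bears on these values was not tested. The binding proteins Fabp1 and Fabp2 had r = 0.63 (rho = 0.70, adjusted p = 0.004 and 0.0015; 0.67 without 2).

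The other 5 pairs did not pass. Mttp and Apob, the partners of lipid loading, had r = 0.39 (rho = 0.41, adjusted p = 0.0965 and 0.0772), with 0.14 within GAL42 and 0.61 within GLU42, 0.53 without 2 libraries, and 0.17 with CPM scaled by the library total. The efflux genes Abca1 and Abcg5 had r = 0.45 (rho = 0.41, adjusted p = 0.0556 and 0.0772; 0.44 without 2). Mogat2 and Dgat2, consecutive steps of triglyceride synthesis, had r = 0.36 (rho = 0.38, adjusted p = 0.112 and 0.0894; 0.18 without 2). The sterol uptake genes Npc1l1 and Scarb1 had r = 0.26 (rho = 0.31, adjusted p = 0.25 and 0.167; 0.21 without 2), with 0.61 within GAL42 and -0.16 within GLU42. That gap between the diets was not tested. Cd36 and Plin2 had r = 0.13 (rho = 0.30, adjusted p = 0.541 and 0.167; 0.03 without 2).

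Over all 465 pairs of members, 381 had r above 0 and the median r was 0.30. The highest was 0.84, for Agpat2 with Tm6sf2, and next came Slc27a4 with Plin3 (0.83) and with Soat2 (0.81). The lowest was -0.49, for Fabp1 with Scarb1, and Scarb1 was also in the next 2, with Fabp2 (-0.43) and Acsl5 (-0.41). These values share libraries and their scaling, and they are given without a test.

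**Figure D4:**
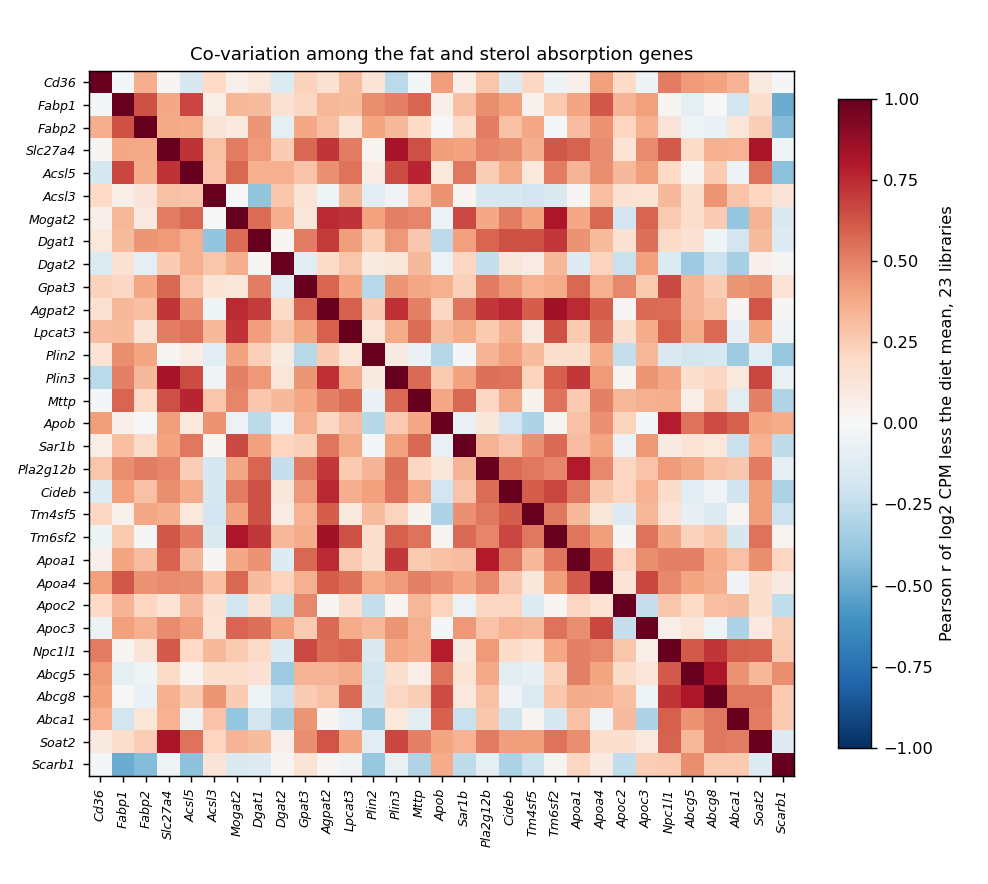
Pearson r (colour) of log2 CPM less the diet mean between each pair of the 31 genes over 23 libraries, in the order of their roles. Red squares outnumber blue ones (381 of 465 pairs above 0), and the Scarb1 row is blue against Fabp1 (-0.49) and Fabp2 (-0.43).

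A further 12 relations were computed after the values had been seen, so their p-values are no independent evidence. Of 13404 genes, the one closest to Scarb1 was Bco1, which cleaves beta-carotene to retinal (r = 0.91, rho = 0.89, permutation adjusted p = 0.00012 and 6e-05 over the 12). It held within GAL42 (0.87), within GLU42 (0.97) and without 2 libraries (0.85). The gene with the most negative r of the 13404 was Isx, an intestinal homeobox factor known in mice as a repressor of both genes (r = -0.72, rho = -0.67, adjusted p = 0.00026 and 0.00156; -0.83 within GAL42, -0.57 within GLU42 and -0.60 without 2). Bco1 had 104, 425 and 866 CPM in the lowest, median and highest GAL42 libraries and 68.0, 306 and 1212 CPM in those of GLU42. Isx had 27.01, 37.3 and 90.3 CPM on GAL42 and 35.0, 46.4 and 92.9 CPM on GLU42. Neither passed between the diets (log2 differences of 0.37 ± 0.35 and -0.27 ± 0.19, edgeR adjusted p = 0.654 and 0.517).

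The sterol transporter genes were low where Hmgcs1 was high. The relations with a p-value in this paragraph are among the 12 computed after the values had been seen. Their p-values are adjusted over those 12 alone, not over the 13404 genes, and are no independent evidence. Hmgcs1, an enzyme early in cholesterol synthesis, had the most negative r of 13404 genes with Abcg5 (r = -0.77, rho = -0.83, adjusted p = 0.00012 and 6e-05; -0.83 within GAL42, -0.65 within GLU42 and -0.70 without 2). With CPM scaled by the library total in place of TMM, r was -0.54 for Abcg5, -0.63 for Abcg8 and -0.79 for Npc1l1, each against Hmgcs1. On the TMM scale Hmgcs1 had r = -0.78 with Abcg8 (rho = -0.80, adjusted p = 0.00015 and 0.00012; -0.67 without 2), -0.71 with Npc1l1 (rho = -0.64, adjusted p = 0.00026 and 0.00236; -0.58 without 2) and -0.57 with Abca1 (rho = -0.54, adjusted p = 0.00771 and 0.0127; -0.55 without 2). With Scarb1 it was weaker (r = -0.46, rho = -0.44, adjusted p = 0.0341 and 0.0436; -0.59 without 2; -0.62 within GAL42 and -0.15 within GLU42). The synthesis genes Fdft1 (r = -0.75) and Sqle (-0.72) were also among the 4 genes most negative with Abcg5, given as a description with no test. Hmgcs1 itself had 61.1, 91.7 and 111 CPM in the lowest, median and highest GAL42 libraries and 66.0, 76.9 and 89.4 CPM in those of GLU42. Its difference between the diets, 0.19 ± 0.08, did not pass (edgeR p = 0.0256, adjusted p = 0.280 over all tested genes), though 7 GAL42 libraries lay above every GLU42 library. The length slope moved with Npc1l1 (r = 0.53, rho = 0.51, adjusted p = 0.0123 and 0.0193; 0.46 without 2) and Abca1 (r = 0.53, rho = 0.54, adjusted p = 0.0123 and 0.0127; 0.60 without 2). It moved less with Scarb1 (r = 0.32, rho = 0.41, adjusted p = 0.149 and 0.058; 0.25 without 2) and Cd36 (r = 0.25, rho = 0.09, adjusted p = 0.242 and 0.673; 0.18 without 2). For Apob the adjusted p over the 12 was 0.00012 and 0.00069, and r was 0.78 without 2 libraries. Other members had r of like size with the length slope, given without a test. It was 0.54 for Acsl3 and 0.47 for Abcg8, and -0.50 for Dgat1, -0.46 for Cideb, -0.45 for Tm4sf5 and -0.43 for Plin2. For Hmgcs1 the r with the length slope was not computed. The part of the slope in the correlations of Hmgcs1 was not tested.

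**Figure D5:**
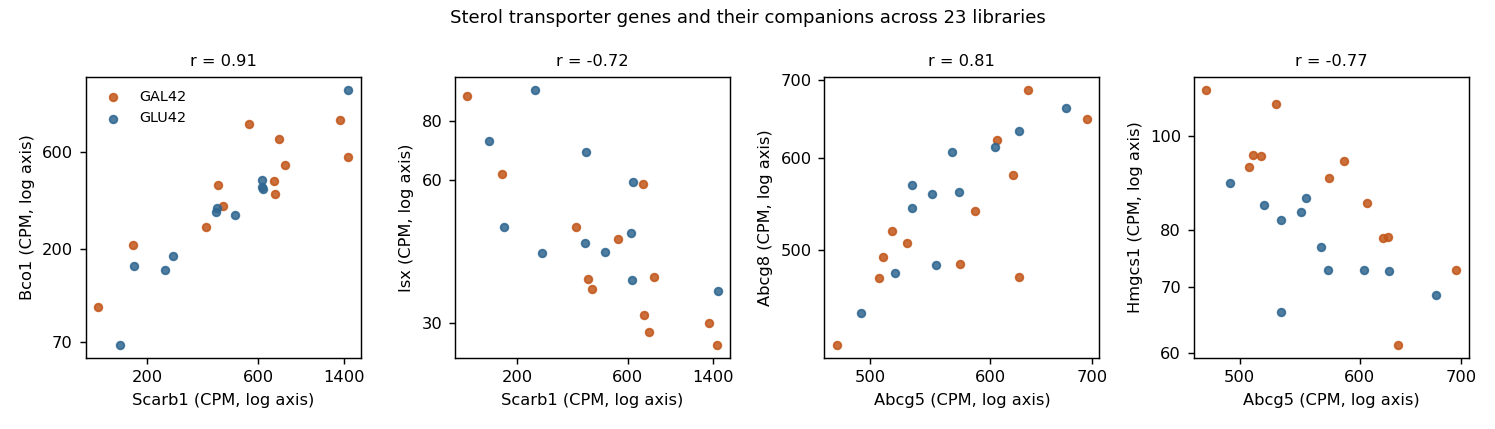
CPM (log axes) of Scarb1 against Bco1 and Isx, and of Abcg5 against Abcg8 and Hmgcs1; each point is 1 library, coloured by diet, and r above each panel is that of log2 CPM less the diet mean. In both diets the points go up for Bco1 (0.91) and Abcg8 (0.81) and down for Isx (-0.72) and Hmgcs1 (-0.77).

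Of 122 other genes of the pathway, 108 were tested and none passed (smallest edgeR adjusted p = 0.162). Their median difference was -0.02, with 46 positive and 62 negative. At an unadjusted p under 0.05, 3 were higher on GAL42 (2.78%, against 8.63% of all tested genes) and 13 lower (12.04%, against 5.72%). Among the 7 genes listed under lipid hydrolysis (Plb1, Enpp7, Naaa and the carboxylesterase genes Ces1f, Ces2a, Ces2c and Ces2e) 6 were negative and 3 had such a p. Plb1, a phospholipase of the brush border, had 0.19, 1.38 and 16.9 CPM in the lowest, median and highest GAL42 libraries and 0.98, 8.82 and 84.5 CPM in those of GLU42 (-2.18 ± 0.66, p = 0.0027). The ranges overlapped widely and both were strongly skewed. Enpp7, the alkaline sphingomyelinase, averaged 307 ± 82.6 CPM on GAL42 and 498 ± 278 CPM on GLU42 (-0.70 ± 0.25), with 11 of 12 GAL42 libraries below the GLU42 median. Ces2a, a carboxylesterase, averaged 316 ± 85.7 CPM on GAL42 and 462 ± 159.8 CPM on GLU42 (-0.55 ± 0.17).

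The other 7 of the 10 such genes with the smallest p had smaller differences. Gk, glycerol kinase, averaged 210.2 ± 18.8 CPM on GAL42 and 243 ± 31.1 CPM on GLU42 (-0.21 ± 0.07), with all 12 GAL42 libraries below the GLU42 median. Acsl1, another acyl-CoA synthetase, averaged 118 ± 18.1 CPM on GAL42 and 136 ± 14.5 CPM on GLU42 (-0.21 ± 0.08). Prap1, a lipid-binding protein that acts in chylomicron assembly, averaged 2613 ± 582 CPM on GAL42 and 2126 ± 360.2 CPM on GLU42 (0.30 ± 0.11). Ffar1, a receptor for long-chain fatty acids, had a difference of -0.48 ± 0.19, Ptdss1, which makes phosphatidylserine, one of -0.17 ± 0.07, and the sterol exporter Abcg1 one of -0.37 ± 0.16. Flot2, a flotillin of membrane rafts, differed by 0.31 ± 0.13. None of these 10 passed after adjustment. Of 19 tested regulators of lipid absorption, 14 were negative and 4 were lower on GAL42 at an unadjusted p under 0.05, where 49.5% of all tested genes were positive and 5.72% were lower at that p. These counts were not tested against that background.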

How the data were processed

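RNA-seq libraries of 23 mice were analysed. For each mouse the authors deposited raw read counts per gene, made with STAR and HTSeq on GRCm39 per the submitters' processing notes; the sources used here give no versions, annotation, strand setting or filters. Labels assign the diet; replicates are numbered by accession order, so no mice are paired. The 5 rows that name no gene held 13.5% of reads and were left out. Symbols came from the supplied name table (52083 of 55416 rows, 94.0%), and transcript lengths from an annotation of another build, matched by identifier (52135 rows), so no coordinates are given except those of RefSeq promoter windows on GRCm38.p6. All 121 pairs of libraries within a diet differed beyond sampling noise (chi-square per degree of freedom 12.9 to 51.3).

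edgeR 4.0.16 (R 4.3.3) was fitted to all 23 libraries with TMM scaling, filterByExpr (13405 genes) and diet as the only term, with a Benjamini-Hochberg threshold of 0.05 over all genes. CPM are scaled by TMM and given as mean ± SD (n = 12 GAL42, n = 11 GLU42), and fold changes are log2 values, GAL42 minus GLU42, ± SE. The test was tried on simulated counts with 200 of 13405 genes changed; 3.05% of its calls were of unchanged genes, and 90.5% of genes changed 2-fold were recovered. Alternatives were DESeq2 1.42.0 and its size factors, limma-voom (limma 3.58.1) with quality weights, other count filters, the length slope as a covariate, and each library left out. Correlations used log2 CPM with a prior count of 2, less the diet means, and two-sided tests with 100000 permutations, whose smallest p is 1e-05.

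The members, the lists of other genes and markers, and the tests were chosen with earlier results of these data known. All 31 members are named; the 8 of smallest p have per-library values, as do some others picked after their values were seen; of the other pathway genes the 10 of smallest p averaging at least 1 CPM are named.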

Additional observations from a re-analysis of the deposited data

How the results depend on the processing

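The count of members called was 0, and 1 (Cd36) under DESeq2 and without GAL42 replicate 7; it ranged from 0 to 1 with each library left out and was 0 under the other alternatives. Over all genes the count was 0, but 132 under DESeq2, 167 under limma-voom with sample quality weights, and 0 to 219 with each library left out, where only the fit without GAL42 replicate 7 made calls. With limma-voom quality weights Cd36 had an adjusted p of 0.0553, and over all 23 fits with a library left out it lay between 0.0425 and 0.256, at differences between -0.64 and -0.48. The other pathway genes gave 0 calls in every fit run. The median difference of the members, 0.0072, lay between -0.0267 and 0.0299 with each library left out, and was -0.0010 with no count filter.

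With the length slope as a covariate 6 members changed sign: Abca1 to 0.133, Abcg8 to 0.0538, Acsl3 to 0.0733, Apob to 0.0030, Mttp to 0.0169 and Slc27a4 to 0.0025. Apoa4 was -0.0010 with no count filter. With each library left out, 26 of the 713 member values changed sign, all near 0: Abcg5 ranged from -0.0081 to 0.0479, Acsl5 from -0.0457 to 0.0123, Agpat2 from -0.0406 to 0.0188, Apoa4 from -0.0329 to 0.0644 and Apoc2 from -0.234 to 0.0189. The cause of these changes was not tested. Apoc2 fell out of the filter of at least 1 CPM in 11 libraries. No paired analysis was possible because replicates are numbered by accession order and no label pairs mice across the diets.

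With CPM scaled by the library total in place of TMM, all 22 correlations kept their sign; Mttp with Apob went to 0.17, Abcg5 with Hmgcs1 to -0.54 and Cd36 with Plin2 to 0.05.

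Depth limits Apoc2 alone among the members, with 311 counts in all libraries; for the rest the spread between mice sets the precision.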
